A study of Mus musculus with 6 samples.

Results

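The nuclear genes for proteins of the mitochondrial ribosome were followed in hearts of C57BL6/J mouse embryos in which the genes for the RNA-binding proteins RBPMS and RBPMS2 were deleted, compared with control hearts. The genes were all those of protein-coding biotype whose symbol begins with Mrpl or Mrps and a digit, which gave 77 of the 48709 genes measured. Polyadenylated RNA was sequenced from 6 heart libraries. The 3 control libraries carried the genotype RBPMS flox/flox RBPMS2 flox/flox, and the 3 double knockout libraries carried the same floxed alleles together with a Cre transgene labelled XML, with loss of both genes aimed at cardiomyocytes, the contractile cells of the heart. Controls were littermates, so all 6 libraries shared the floxed alleles and no group carried Cre alone; effects of Cre and of gene loss cannot be told apart here. The embryonic day, the promoter behind XML Cre and whether libraries came from separate animals are points the sources used here leave out; p-values therefore measure the spread between these libraries.

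Mitochondria keep a small genome of their own, and the proteins it encodes are core subunits of the respiratory chain and of ATP synthase. They are made by the mitochondrial ribosome, whose RNA comes from that genome while all of its proteins are encoded in the nucleus, translated in the cytosol and imported. Genes named Mrpl were assigned to the large subunit, which holds the peptidyl transferase centre and the exit tunnel, and genes named Mrps to the small subunit, which reads the messenger RNA. Some members descend from proteins of the bacterial ribosome and others were added during the evolution of mitochondria. A few names mislead: Mrps18a and Mrps30 sit in the large subunit, and Mrps36 is a subunit of the 2-oxoglutarate dehydrogenase complex rather than of the ribosome. Heart muscle is rich in mitochondria and draws most of its ATP from oxidative phosphorylation as it matures.

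Deposited values are rounded read counts, each library multiplied by its own factor, and they summed to between 19770390 and 20215282 per library. Rbpms, on chromosome 8 of GRCm38 (mm10), stood at 3551, 3853 and 3956 in the controls and at 721, 699 and 670 in the knockouts. Rbpms2, on chromosome 9, stood at 2444, 2571 and 2716 in the controls and at 1676, 1257 and 1429 in the knockouts, so both targeted genes were lower in all knockout libraries and a part of their RNA remained. The libraries numbered 3 had the expression pattern of males, with Xist at 6 and 20 against 19501 to 25229 in the other libraries. Calls of the members and of genes named from the related mitochondrial lists are also given without them. Of 26747 genes tested, 618 were higher in the knockouts (2.31%) and 681 lower (2.55%), together 4.86%. Markers of the cardiomyocyte were abundant in every library.

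Promoter windows are shown for members whose values are described later, to print the start regions of these genes beside their levels. Each runs from 250 bases before to 50 bases after the annotated start (RefSeq, GRCm38.p6, 5′ to 3′ on the gene's own strand). Windows existed for 68 of the 77 members. Capitals mark matches, on either strand, to core binding motifs of NRF1 (CGCNTGCG), of the ETS factor GABPA (CCGGAAGT) and of YY1 (AANATGGCG), factors long associated with nuclear genes for mitochondrial proteins; N stands for any base, and none of these motifs contains another. Mrps27 and Mrps2 are genes that fell in the knockouts, and Mrps27 at chr13:99344536-99344835 on the plus strand holds a match of each kind while Mrps2 at chr2:28467816-28468115 on the plus strand holds none of the 3. Mrpl44 at chr1:79775768-79776067 on the plus strand holds an NRF1 match. Mrps11 at chr7:78782881-78783180 on the plus strand and Mrpl46 at chr7:78783040-78783339 on the minus strand start head to head, so that their windows overlap, and the Mrps11 window holds a YY1 match outside the shared bases.
Mrps27: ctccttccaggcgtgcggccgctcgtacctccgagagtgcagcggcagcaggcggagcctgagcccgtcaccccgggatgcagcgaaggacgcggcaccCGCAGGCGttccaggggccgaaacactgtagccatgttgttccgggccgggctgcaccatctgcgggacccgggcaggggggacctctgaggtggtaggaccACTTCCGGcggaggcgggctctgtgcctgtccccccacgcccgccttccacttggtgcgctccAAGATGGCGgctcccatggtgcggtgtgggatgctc
Mrps2: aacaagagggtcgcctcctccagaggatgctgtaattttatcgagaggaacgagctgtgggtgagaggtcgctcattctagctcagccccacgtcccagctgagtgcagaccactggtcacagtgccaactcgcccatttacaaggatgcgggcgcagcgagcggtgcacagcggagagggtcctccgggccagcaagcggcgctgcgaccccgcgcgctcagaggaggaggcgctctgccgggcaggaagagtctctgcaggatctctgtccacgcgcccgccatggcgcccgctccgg
Mrpl44: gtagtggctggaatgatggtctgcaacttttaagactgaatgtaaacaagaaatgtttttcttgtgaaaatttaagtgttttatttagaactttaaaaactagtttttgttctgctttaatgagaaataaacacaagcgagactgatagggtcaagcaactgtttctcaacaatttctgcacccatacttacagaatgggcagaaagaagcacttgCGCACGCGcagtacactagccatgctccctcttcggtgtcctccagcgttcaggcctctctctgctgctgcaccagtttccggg
Mrps11: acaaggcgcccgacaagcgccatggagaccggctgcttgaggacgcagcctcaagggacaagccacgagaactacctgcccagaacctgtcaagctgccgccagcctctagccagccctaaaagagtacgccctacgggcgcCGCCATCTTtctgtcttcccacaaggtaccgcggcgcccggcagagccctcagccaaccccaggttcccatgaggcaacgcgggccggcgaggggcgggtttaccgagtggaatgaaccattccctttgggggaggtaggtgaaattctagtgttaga
Mrpl46: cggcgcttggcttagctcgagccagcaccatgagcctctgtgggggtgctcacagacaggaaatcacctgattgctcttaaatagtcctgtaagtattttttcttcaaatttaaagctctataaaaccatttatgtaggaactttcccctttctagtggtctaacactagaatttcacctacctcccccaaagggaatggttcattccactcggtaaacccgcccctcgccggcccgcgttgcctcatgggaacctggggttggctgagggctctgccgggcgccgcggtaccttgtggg

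Over all members with a window, 20 of 74 windows (27.0%) held the NRF1 motif, against 8.21% of the 32851 windows of this length in the table. The GABPA motif was in 12 windows (16.2%, against 3.89%) and the YY1 motif in 10 (13.5%, against 2.38%). The SP1 motif GGGCGG, not capitalised above, was in 39 windows (52.7%, against 35.7%). A match describes letters only and says nothing of occupancy in these hearts. The median log2 fold change was -0.13 in the 20 members with an NRF1 match and -0.17 in the 47 tested members without, -0.13 in the 12 with a GABPA match and -0.16 in the 55 without, and -0.18 in the 10 with a YY1 match and -0.16 in the 57 without.

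Most genes of the mitochondrial ribosome stood slightly lower in the double knockout hearts, and 4 fell past the test. The 4 were Mrpl4, Mrps27, Mrpl19 and Mrps2, which make 5.26% of the 76 members tested, where 2.55% of all tested genes were lower and 4.86% passed in either direction. Among the 11913 tested protein-coding genes with a mean value of 50 or more, 565 were lower and 425 higher, together 8.31%. None of the 76 was higher past the test, where 2.31% of all genes were, by limma or by limma-voom, and none was higher at an unadjusted p under 0.05. The log2 fold change, knockout minus control on the scale of log2(value + 1), was below 0 for 70 of the 76 (92.1%), against 48.1% of all tested genes and 52.5% of the 11913 tested protein-coding genes whose mean value was 50 or more. The members' median was -0.18, a level 11.6% lower in the median member, while the median over all tested genes was 0.02. The smallest change that was called among the members was -0.30 (Mrps2), and the median standard error of a member's log2 fold change was 0.099.

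Genotypes did not overlap for 26 members, all of them lower in the knockouts (34.2%, against 10.6% of all tested genes that were lower without overlap and 17.6% of those protein-coding genes). At an unadjusted p under 0.05, 32 members were lower (42.1%, against 9.00% of all tested genes). In either direction, 3368 of those 11913 protein-coding genes had an unadjusted limma p under 0.05. Members share a library's deviations, so they do not count as separate observations of the genotype. Calls came from limma with Benjamini-Hochberg adjustment over all tested genes and an adjusted p under 0.05. Without the robust option of limma 0 members were called, and 0 were called without both libraries numbered 3, where the median was -0.11 and 63 were below 0.

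**Figure D1:**
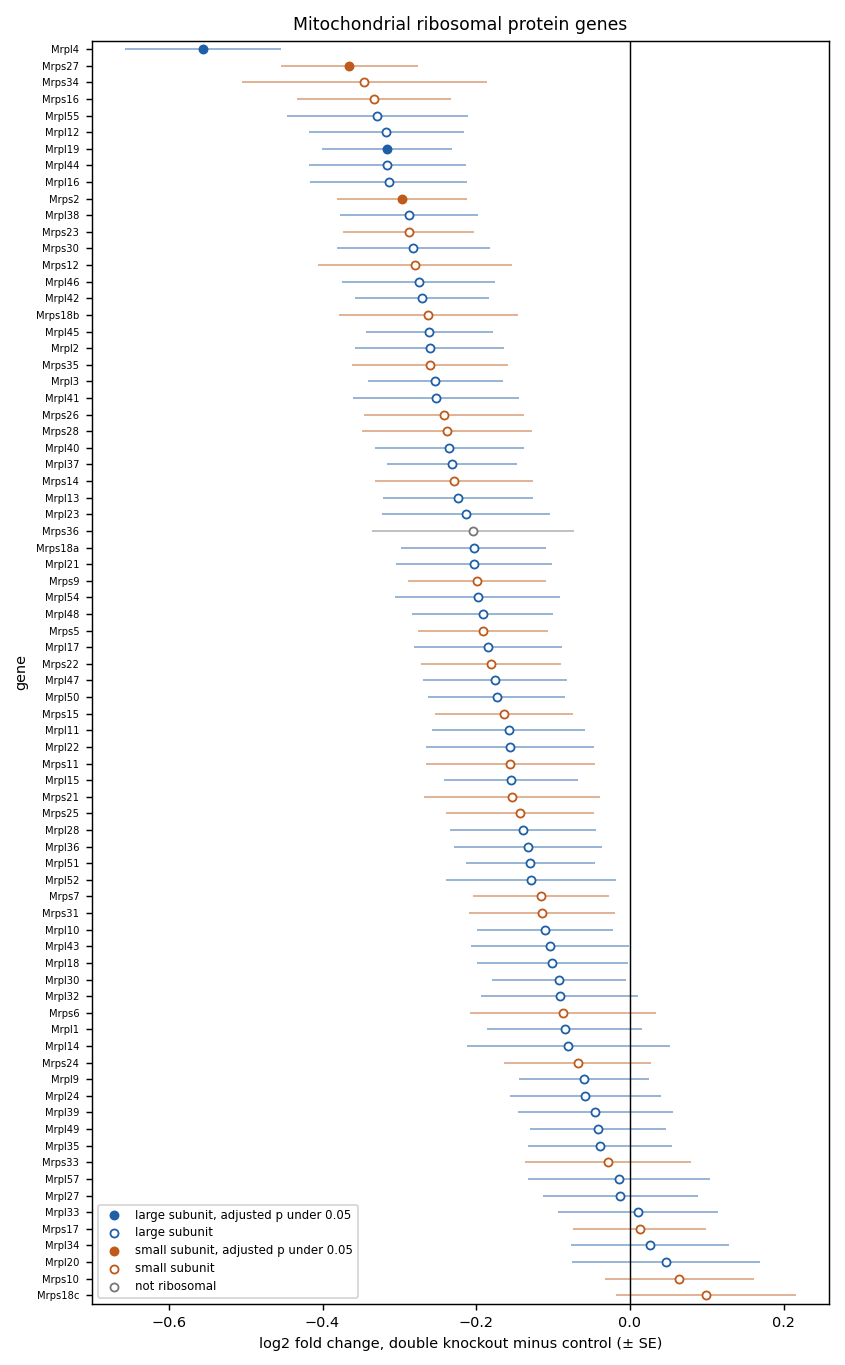
Log2 fold change, double knockout minus control, of the 76 tested members with its standard error, ordered by size; blue points are large subunit members, orange points small subunit members and the grey point Mrps36, and filled points passed the test. Of the 76 points, 70 lie left of 0, from Mrpl4 at -0.56 to Mrps18c at 0.10, and 4 are filled.

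Mrpl4 encodes the large subunit protein that lines the wall of the peptide exit tunnel, and it lies at chr9:21002738-21008839 on the plus strand. Its values were 972, 917 and 1066 in the controls and 741, 696 and 580 in the knockouts. Every knockout library was below every control, and the fall was deeper than that of any other member. The log2 fold change was -0.56 ± 0.10 (SE, n = 3 libraries a genotype; limma adjusted p 0.00254), a mean level 31.7% lower. The call held in 16 of 18 alternative settings, including each library left out in turn. It was lost without the robust option (limma adjusted p 0.0628) and without both libraries numbered 3 (limma adjusted p 0.251, log2 fold change -0.39).

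Mrps27, at chr13:99344786-99415562 on the plus strand, encodes a mitochondria-specific small subunit protein with pentatricopeptide repeats, a fold known for binding RNA. The controls were at 934, 918 and 1043 and the knockouts at 753, 768 and 723. The knockout libraries lay close together and below all controls, and the gene was 22.5% lower (log2 fold change -0.37 ± 0.09, SE, n = 3; limma adjusted p 0.0212). The call was lost without control 1, control 3 or knockout 3 (limma adjusted p 0.0936, 0.175 and 0.0893). Of its exon bases, 24.2% also lie in 6430562O15Rik on the other strand.

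Mrpl19, at chr6:81957851-81965958 on the minus strand, encodes a large subunit protein with a bacterial counterpart. Its values were 953, 969 and 1006 in the controls and 781, 790 and 779 in the knockouts, a narrow range within each genotype and no overlap between them. It was 19.7% lower (log2 fold change -0.32 ± 0.08, SE, n = 3; limma adjusted p 0.0357). Leaving out any 1 of the 6 libraries raised the limma adjusted p above the threshold, to between 0.0506 and 0.192. The gene shares 36% of its exon bases with Gcfc2 on the other strand.

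Mrps2 encodes a small subunit protein with a bacterial counterpart, and lies at chr2:28468066-28471178 on the plus strand, starting inside the promoter window printed above. Controls were at 1013, 1068 and 1076 and knockouts at 889, 842 and 839. Both groups were tight and apart, with a mean 18.6% lower (log2 fold change -0.30 ± 0.08, SE, n = 3). The limma adjusted p of 0.0498 was just inside the threshold, and it was 0.050 to 0.226 with each library left out in turn. Just outside the threshold stood Mrps23, a mitochondria-specific small subunit protein, at 1061, 1077 and 1127 in the controls and 852, 926 and 897 in the knockouts (log2 fold change -0.29, limma adjusted p 0.0581). Next were Mrps16, a small subunit protein with a bacterial counterpart (limma adjusted p 0.0633), and Mrpl38, of the central protuberance (limma adjusted p 0.0749).

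**Figure D2:**
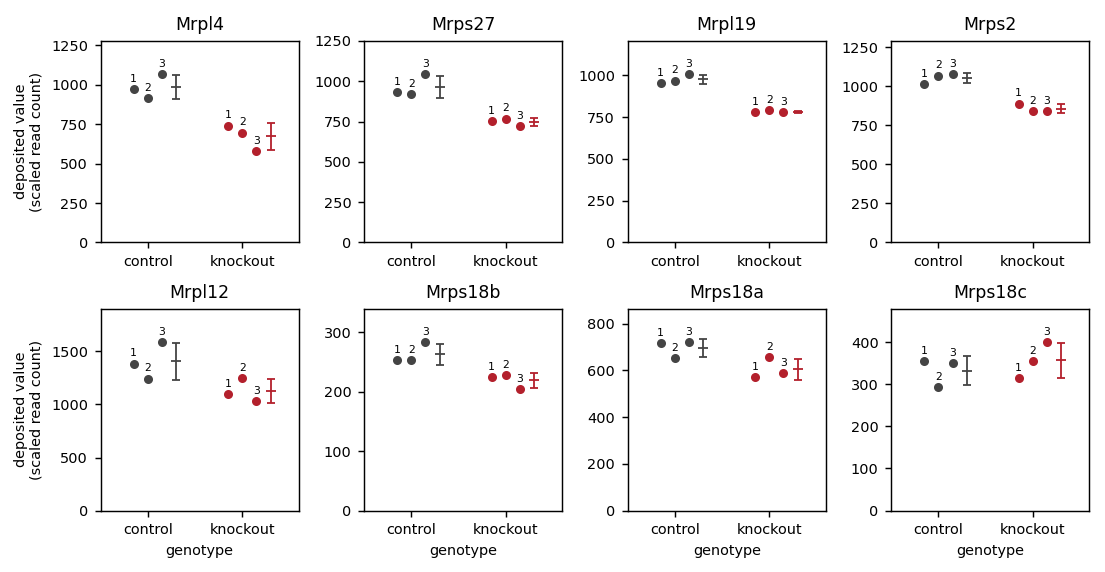
Deposited values (scaled read counts) of 8 members in each library, numbered 1 to 3 within a genotype, with the mean and SD beside the points. The upper row shows the 4 members that fell, with no overlap between genotypes, and Mrps18c is the panel whose knockout mean (356) lies above its control mean (332).

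Both subunits had a median change below 0. Beside the counts that follow, 2.55% of all tested genes fell and 10.6% were lower without overlap. Of the 50 large subunit genes 49 were tested, 2 fell, 46 were below 0, the median log2 fold change was -0.17 and 17 did not overlap between genotypes. Of the 26 small subunit genes 2 fell, 23 were below 0, the median was -0.19 and 9 did not overlap. Summed over the large subunit, the genes took 0.208%, 0.185% and 0.214% of the control libraries and 0.177%, 0.189% and 0.175% of the knockout libraries. The small subunit took 0.0951%, 0.0851% and 0.0978% of the controls and 0.0810%, 0.0873% and 0.0809% of the knockouts. In both subunits the share of control 2 lay below that of knockout 2, so the shares overlapped between genotypes. Not divided by the library total, the large subunit sums were 41653, 37412 and 43305 against 35150, 37364 and 35364, without overlap (exact two-sided permutation p = 0.1, the smallest this design allows). The small subunit sums were 19051, 17199 and 19774 against 16057, 17265 and 16331, with overlap (exact permutation p = 0.2). The difference between the subunits was not tested.

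Within the large subunit, genes were also grouped by where their proteins sit, a grouping made after values were seen. The 4 proteins around the peptidyl transferase centre (Mrpl2, Mrpl3, Mrpl16 and Mrpl27) had a median log2 fold change of -0.26. Mrpl16 was at 868, 726 and 969 in the controls and 672, 677 and 698 in the knockouts, without overlap, while Mrpl27 was at -0.01, with a sign that turned in 7 of the 18 alternative settings. None of these 4 passed the test, and 3 were lower at an unadjusted p under 0.05. The 8 genes of the exit tunnel had a median of -0.19. Of these, 4 were lower without overlap (50%, against 10.6% of all tested genes): Mrpl4, Mrpl44, Mrpl45 and Mrpl47. Mrpl44, a protein with a ribonuclease III fold, was at 559, 520 and 602 in the controls and 432, 501 and 419 in the knockouts (log2 fold change -0.32, limma adjusted p 0.0860). Mrpl45, which ties the ribosome to the inner membrane at the tunnel exit, was at 1210, 1215 and 1217 in the controls and 1020, 1021 and 998 in the knockouts (log2 fold change -0.26, limma adjusted p 0.0774).

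The 6 genes of the central protuberance had a median of -0.21. Of these, 4 (Mrpl38, Mrpl40, Mrpl46 and Mrpl48) were lower without overlap (66.7%, against 10.6% of all tested genes). Mrpl46 was at 566, 478 and 562 in the controls and 450, 430 and 443 in the knockouts (log2 fold change -0.28, limma adjusted p 0.128). Of the 4 genes of the stalk that recruits translation factors 3 were tested, with a median of -0.16 and overlap in each. Mrpl12, the stalk protein that is also known to bind the mitochondrial RNA polymerase, was at 1386, 1245 and 1585 in the controls and 1096, 1252 and 1030 in the knockouts (log2 fold change -0.32, limma adjusted p 0.0802). Knockout 2 was above control 2 for Mrpl12, and the other knockouts were below all controls. The 4 genes of the small subunit platform (Mrps6, Mrps11, Mrps18c and Mrps21) had a median of -0.12, with overlap in each and none at an unadjusted p under 0.05. Mrps11, the head-to-head neighbour of Mrpl46, was at 395, 378 and 390 in the controls and 363, 384 and 302 in the knockouts (log2 fold change -0.16, limma adjusted p 0.473).

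Members with a bacterial counterpart and members found only in mitochondria both centred below 0. Of the 45 with a counterpart, 3 fell (Mrpl4, Mrpl19 and Mrps2), 39 were below 0, the median was -0.15 and 10 (22.2%) did not overlap. Of the 29 tested members without one, 1 fell (Mrps27), all 29 were below 0, the median was -0.23 and 16 (55.2%) did not overlap. Mrpl55 was left out of both groups because its descent was unsure. Of all tested genes 2.55% fell and 10.6% were lower without overlap. The median transcript length was 1757 bases in the group with a counterpart and 2114 in the group without. The difference between these groups, and the part of transcript length in it, was not tested. The 6 members above 0 all had a bacterial counterpart: Mrpl33 and Mrps17 at 0.01, Mrpl34 at 0.03, Mrpl20 at 0.05, Mrps10 at 0.06 and Mrps18c at 0.10. None of the 6 passed the test, and for Mrpl33, Mrps17, Mrpl34 and Mrpl20 the sign turned in some alternative settings. Mrpl20, a large subunit protein, was at 675, 540 and 721 in the controls and 579, 780 and 641 in the knockouts. Its sign turned when control 2 or knockout 2 was left out, to -0.08 and -0.07. Mrps10, of the small subunit head, was at 562, 533 and 627 in the controls and 620, 621 and 558 in the knockouts.

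The Mrps18 paralogs, related copies of a bacterial protein that occupy different places in the ribosome, had changes of different sign. In the split by descent above, Mrps18a and Mrps18b were nevertheless counted as mitochondria-specific, and only Mrps18c as having a bacterial counterpart. Mrps18b, a small subunit paralog, was at 253, 253 and 283 in the controls and 224, 228 and 205 in the knockouts (log2 fold change -0.26, limma adjusted p 0.226). Mrps18a, the large subunit paralog, was at 717, 654 and 720 against 573, 657 and 587 (log2 fold change -0.20, limma adjusted p 0.246). Mrps18c, which takes the bacterial position on the platform, was at 354, 293 and 350 against 315, 355 and 399 (log2 fold change 0.10, limma adjusted p 0.682). Only Mrps18b was without overlap, none of these paralogs passed the test, and differences between them were not tested. Mrps18b shares 30.5% of its exon bases with Gm16279 on the other strand, and Mrps18c shares 23.2% with Gm43511 on its own strand.

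Mrps30, a mitochondria-specific protein of the large subunit despite its name, was at 635, 650 and 729 in the controls and 578, 494 and 586 in the knockouts, without overlap (log2 fold change -0.28, limma adjusted p 0.117). Mrps36, the dehydrogenase subunit, was at 747, 571 and 725 against 479, 672 and 628, with overlap (log2 fold change -0.20, limma adjusted p 0.435). Without Mrps36, itself not called, the members' median was -0.18. Mrps34, a mitochondria-specific small subunit protein, had the third lowest change: 107, 118 and 149 in the controls and 92, 98 and 101 in the knockouts (log2 fold change -0.35 ± 0.16, SE, n = 3; limma adjusted p 0.246). Its low level went with a wide error, so its difference was not separable from the spread between libraries by the adjusted test although the groups did not overlap.

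Levels differed more between members than between genotypes. The mean value over the 6 libraries ran from 110.8 (Mrps34) to 1893 (Mrpl42) among tested members, with a median of 674.6. Per kilobase of the longest annotated transcript, the highest mean levels were those of Mrps21 (1763 per kb), a small subunit platform protein, Mrpl54 (1317 per kb), a mitochondria-specific large subunit protein, Mrpl28 (1099 per kb), a large subunit protein with a bacterial counterpart, and Mrpl12 (961.8 per kb). The lowest were those of Mrps34 (58.8 per kb), Mrps25 (84.9 per kb), Mrpl17 (94.6 per kb) and Mrps26 (126.7 per kb), and none of these 8 genes passed the test. Their log2 fold changes lay between -0.14 (Mrpl28 and Mrps25) and -0.35 (Mrps34), and across the 76 members the change and the mean value had a Spearman's rho of -0.08. Mrpl28 was at 0.01 once the trend with GC content and length described later was removed.

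Some members share sequence with other genes, and the sources used here do not give the strand and multi-mapping settings of the counting. Mrpl53, a stalk protein, was listed at 1 in control 1 and at 0 elsewhere and was not tested; 88.0% of its exon bases are shared with Gm42688 on the same strand. Mrps34 shares 37.0% with Nme3 on its own strand and 63.4% with Mapk8ip3 on the other. In all, 18 members shared over 10% of their exon bases with another gene, among them Mrps27 and Mrpl19. For the 59 others, 2 fell, the median was -0.19 and 54 were below 0.

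Processed pseudogenes, copies of spliced transcripts, matched 16 members at 95% identity or more over at least 200 bases. Gm5776, a copy of Mrps33 with 99.7% identity over 321 bases, was listed at 551, 422 and 516 in the controls, where Mrps33 itself was at 1000, 741 and 1006, so part of the reads of such a pair could have been assigned to either. Mrps16, Mrps18b, Mrps21, Mrps25, Mrps26, Mrps36 and Mrpl42 were among the 16, and the 4 members that fell were not. The 60 members without one had a median of -0.17 and 54 below 0.

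The members moved together from library to library. Their sum was 61451, 55182 and 63804 in the controls and 51686, 55301 and 52323 in the knockouts. As a share of the library this was 0.307%, 0.273% and 0.316% against 0.261%, 0.280% and 0.259%, or 0.299% ± 0.022 against 0.267% ± 0.011 (SD, n = 3 libraries a genotype). Control 2 was below knockout 2, so the genotypes overlapped. The knockout mean was 10.7% lower, and the exact two-sided permutation test over libraries gave p = 0.2, where 3 libraries against 3 cannot give a p below 0.1.

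**Figure D3:**
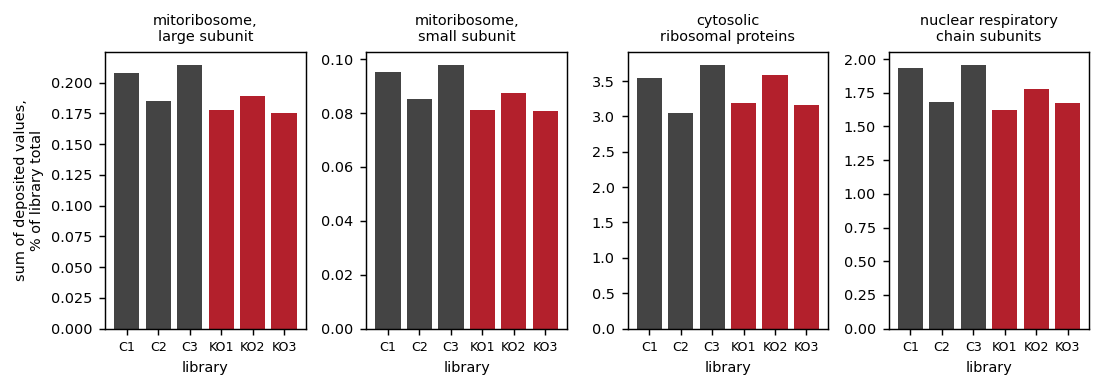
Sum of deposited values as a percent of the library total, in each of the 6 libraries (C, control; KO, double knockout), for large and small mitoribosome subunits, cytosolic ribosomal proteins and nuclear respiratory chain subunits. In each panel control 2 is the lowest control and lies below knockout 2.

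Per gene, the median member deviated from its mean over the 6 libraries by 0.12, -0.03 and 0.17 (log2) in controls 1 to 3 and by -0.13, -0.01 and -0.11 in knockouts 1 to 3. Control 3 was the highest of the 6 libraries in 53 of 76 members and control 2 the lowest control in 67. Knockout 2 was the highest knockout in 55. Thus controls 1 and 3 stood high, knockouts 1 and 3 stood low, and control 2 and knockout 2 lay between them and close to each other. Without control 2 the members' median was -0.24 and 6 were called, and without control 3 the median was -0.13 and 1 was called.

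**Figure D4:**
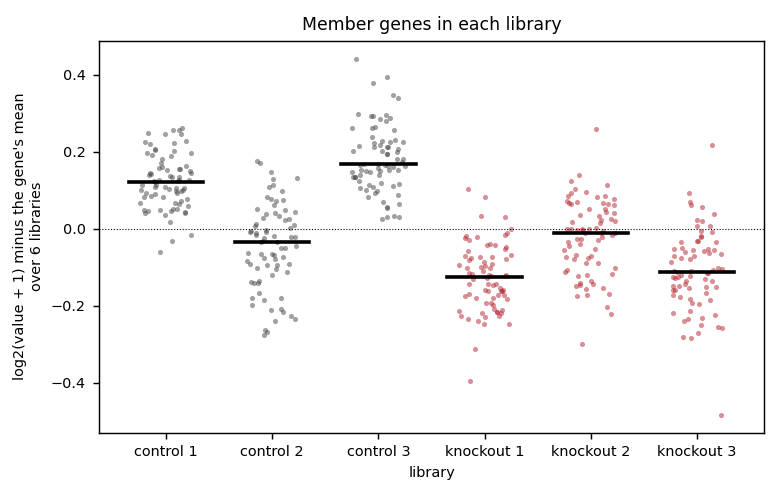
Deviation of each of the 76 tested members from its own mean over the 6 libraries, on the scale of log2(value + 1), by library; black lines are medians. Medians of controls 1 and 3 are at 0.12 and 0.17, those of knockouts 1 and 3 at -0.13 and -0.11, and those of control 2 and knockout 2 at -0.03 and -0.01.

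Libraries also differed in a trend with transcript length and GC content. Over 11905 protein-coding genes, a gene's deviation and its length had a Spearman correlation of -0.22, 0.26 and -0.36 in the controls in order of number, and of 0.30, -0.15 and 0.22 in the knockouts. With GC content it was 0.28, 0.22 and 0.40 in the controls and 0.13, -0.18 and -0.59 in the knockouts. Libraries with a negative length correlation were thus control 1, control 3 and knockout 2, and the GC correlation was lower in each knockout than in each control. Among the members, a median of -0.15 was seen for the 40 with a transcript under 2 kb, 8 of them without overlap, and -0.19 for the 36 longer ones, 18 of them without overlap.

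With the trend on GC content and length removed from each library, 14 members fell (3.10% of all tested genes were lower in that fit), the median was -0.15 and 66 were below 0. These included Mrpl4 (-0.44, limma adjusted p 0.00203), Mrpl19 (-0.35, limma adjusted p 0.00464), Mrpl42, a mitochondria-specific large subunit protein (-0.35, limma adjusted p 0.00474), and Mrps30 (-0.40, limma adjusted p 0.0129). In the fit without that step Mrpl42 was at 2037, 1963 and 2210 in the controls and 1600, 1824 and 1723 in the knockouts (log2 fold change -0.27, limma adjusted p 0.0837). The number of calls therefore depended on this step, while the median was below 0 with it and without it.

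Other genes of mitochondrial translation were taken from lists by function. A list of 7 mitoribosome proteins held Mrpl57, a member already counted above, and otherwise genes with symbols outside the Mrpl and Mrps series. Its median was -0.08 and none passed in either limma or limma-voom, with 2 at an unadjusted p under 0.05. Ptcd3, a pentatricopeptide protein of the small subunit and the most abundant of them, was at 2544, 2625 and 2534 in the controls and 2534, 2555 and 2746 in the knockouts. Of the 7, 6 were below 0, and the lowest was Gadd45gip1 (log2 fold change -0.61, limma adjusted p 0.0984). Of 26 assembly factors 1 fell (3.85%, against 2.55% of all tested genes), the median was -0.11 and 23 were below 0. The one that fell was Mettl17, a methyltransferase-like factor of small subunit assembly, at 427, 407 and 405 against 314, 349 and 291 (log2 fold change -0.38, limma adjusted p 0.0428). That call was lost in at least 1 fit with a library left out (highest limma adjusted p 0.211).

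None of the 14 mitochondrial translation factors passed in limma or limma-voom, 4 did at an unadjusted p under 0.05, and the median was -0.12. Tufm, the mitochondrial elongation factor Tu, was at 3283, 3037 and 3304 in the controls and 2809, 2604 and 2608 in the knockouts (log2 fold change -0.26, limma adjusted p 0.0786), without overlap. Among 20 genes for charging mitochondrial tRNAs 4 fell (20%, against 2.55% of all tested genes), 17 were below 0 and the median was -0.21. Of the 20, 11 were lower without overlap (55%, against 10.6% of all tested genes) and 1 was higher without overlap. Aars2, the alanyl-tRNA synthetase, was at 783, 754 and 773 against 625, 512 and 471 (log2 fold change -0.53, limma adjusted p 0.00426). Fars2, the phenylalanyl-tRNA synthetase, was at 506, 528 and 548 against 390, 390 and 370 (log2 fold change -0.46, limma adjusted p 0.00749). Gatb, a subunit of the complex that makes glutaminyl-tRNA, also fell (log2 fold change -0.34, limma adjusted p 0.0368). The calls of Aars2, Fars2 and Gatb were each lost in at least 1 fit with a library left out, with a highest limma adjusted p of 0.0504, 0.0735 and 0.205 in that order.

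**Figure D5:**
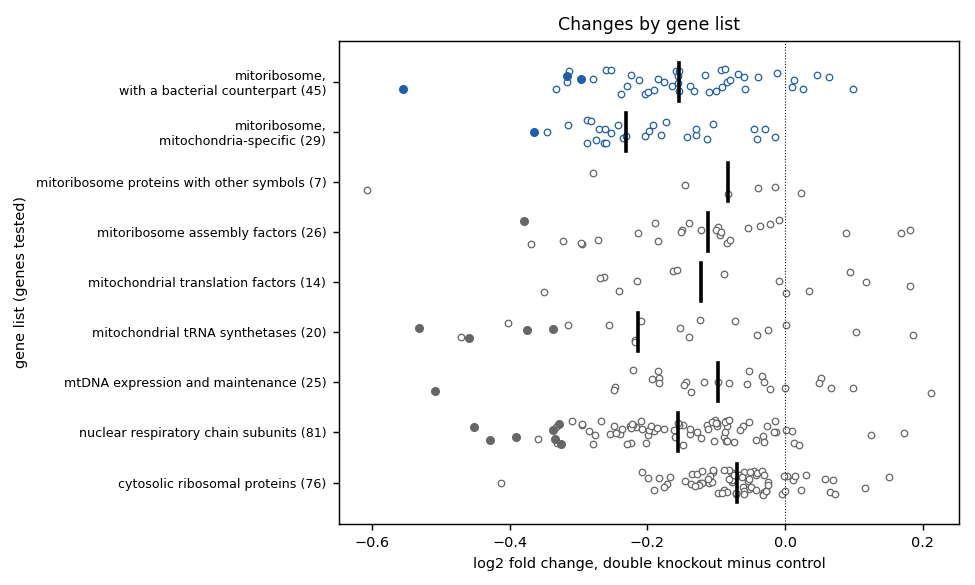
Log2 fold change, double knockout minus control, of each tested gene in the mitoribosome, split by descent, and in 7 related lists; filled points passed the test, black bars are medians and the number tested is in parentheses. Mrpl57 is drawn among the mitochondria-specific members and again among the mitoribosome proteins with other symbols. The medians of the mitochondria-specific members (-0.23) and of the tRNA synthetases (-0.21) lie furthest below 0, and the cytosolic ribosomal proteins have a median of -0.07 and no filled point.

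Ribosomal proteins of the cytosol gave a comparison within the same libraries. None of the 76 passed in limma or limma-voom, 3 did at an unadjusted p under 0.05, 65 were below 0, the median was -0.07 and 2 did not overlap, where 26 members of the mitochondrial ribosome did not. Their summed share was 3.59% lower in the knockouts (exact permutation p = 0.8), with the same order of libraries within each genotype as the share of the mitochondrial ribosome. Of 81 tested nuclear genes for respiratory chain subunits 7 fell (8.64%, against 2.55% of all tested genes), 75 were below 0 and the median was -0.15. Of the 81, 20 were lower without overlap (24.7%, against 10.6% of all tested genes). Cyc1, cytochrome c1 of complex III, was at 6635, 6206 and 7234 against 5374, 4720 and 4592 (log2 fold change -0.45, limma adjusted p 0.00515; highest with a library left out 0.0732). Differences in median between these lists and the mitochondrial ribosome were not tested.

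Of 25 genes for the expression and upkeep of mitochondrial DNA 1 fell (4%, against 2.55% of all tested genes). It was Fastkd5, needed for processing of mitochondrial transcripts, at 180, 181 and 155 against 126, 103 and 134 (log2 fold change -0.51, limma adjusted p 0.0496, highest with a library left out 0.221). Of 25 genes for protein import 2 fell (8%), Tomm40, the channel of the outer membrane, and its relative Tomm40l (log2 fold change -0.46 and -0.49). Among 13 regulators of mitochondrial gene expression 1 rose and 2 fell (together 23.1%, against 4.86% of all tested genes in either direction). Ppargc1b, a coactivator of mitochondrial biogenesis, was at 358, 365 and 385 in the controls and 311, 185 and 204 in the knockouts (log2 fold change -0.70, limma adjusted p 0.0194; highest with a library left out 0.114). Esrrg, a nuclear receptor of oxidative metabolism, was at 1335, 1499 and 1376 against 2007, 1792 and 2184 (log2 fold change 0.50, limma adjusted p 0.00246). Esrrb, a related receptor, fell (log2 fold change -0.56, limma adjusted p 0.0169). The Esrrg call held with each library left out, while those of Tomm40, Tomm40l and Esrrb did not (highest limma adjusted p 0.0679, 0.252 and 0.0929). Without the robust option the calls of Fars2 and Esrrg held among the genes named from these lists, and none of them held without both libraries numbered 3. All 37 rows for genes of the mitochondrial genome, the ribosomal RNAs mt-Rnr1 and mt-Rnr2 included, were listed at 0 in every library, so the RNA part of the organelle's own ribosome and its products could not be followed.

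These were whole hearts, in which fewer cells of a type and less RNA per cell cannot be told apart. Of 10 cardiomyocyte markers Pln rose and Myh6 fell, the median was -0.06, and the summed level was 582930 to 611292 in the controls and 516367 to 554682 in the knockouts. Without Myh6 the sums of the other markers overlapped, at 450616, 461938 and 451450 against 464551, 441133 and 470464. Of 7 smooth muscle or pericyte markers 4 were below 0 and Cnn1 fell, and the sums were 11281 to 11561 against 8190 to 8983. Without Cnn1 they were 6319, 6107 and 6160 against 7450, 6118 and 7827, with knockouts 1 and 3 above all controls. Most of that remainder was Abcc9, at 4375, 3964 and 4350 against 5447, 3887 and 6195. Myh11, Rgs5 and Kcnj8 were low, between 11 and 44 in all libraries. The 8 erythroid markers were all above 0 (median 0.65, none past the test in limma or limma-voom), with sums of 58161, 112930 and 161234 against 123417, 151931 and 169452. The 8 endothelial or endocardial markers were also all above 0 (median 0.07), and Emcn rose (sums 24228 to 28731 against 25905 to 31091). Of 6 macrophage or leukocyte markers 1 was below 0, the median was 0.42 and Ptprc rose (sums 1121 to 1145 against 1140 to 1341). The calls of Emcn and Ptprc were lost in at least 1 fit with a library left out. Of 9 fibroblast or epicardial markers 4 were below 0, none passed in limma or limma-voom, and 2 did at an unadjusted p under 0.05. Their sums were 24817 to 33253 against 22199 to 41808. No marker was at 0 in all libraries, and the part of cell makeup in the level of the mitochondrial ribosome genes was not tested.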

How the data were processed

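Stranded polyA libraries from 500 ng of RNA were sequenced as 75 bp single-end reads, per the labels' protocols. Tools listed in the submitters' processing notes, without their roles, are featureCounts 1.5.0, STAR 2.4.2a, Trimmomatic, DESeq and DESeq2, with the build mm10. The authors' deposited values are a score, not raw counts: reads per gene multiplied by a factor that differs between libraries, then rounded. In control 2, control 3 and knockout 1 the factor was read from the mean spacing of missing whole numbers, of which control 2 had only 3. The other libraries had no such gaps, and their factor was estimated from how often each value occurred. Estimated depths were 18760330 to 21991535 reads. Because the values were scaled, a count model, planned in case of raw counts, was not used. A gene was tested if its mean reached 1 in either genotype, using limma 3.58.1 (R 4.3.3) on values transformed as log2(value + 1), with trended variance and robust moderation, two-sided, with Benjamini-Hochberg adjustment and a threshold of 0.05. This scale understates the change of low genes. The model was run on simulated data that held no trend with GC content or length. The changes put into them were larger than the members' median change, so that run cannot tell how the model performs at that size.

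Members and gene lists were chosen with earlier results of these data known. Genes to name were the targeted genes, members past the threshold, the 3 highest and 3 lowest fold changes, the 4 highest and 4 lowest levels per kb, the Mrps18 paralogs, Mrps36, Mrps30 and Mrpl12, and in each related list the 3 lowest adjusted p past the threshold or else the most abundant gene; other members named were chosen after their values were seen, and 1 gene the rule selects is not reported here. Positions, length and GC content came from GENCODE M21 (GRCm38, the assembly of mm10), which held 99.3% of the identifiers. The trend on GC content and length was a natural spline fit in each library (5 degrees of freedom) to protein-coding genes whose mean was 50 or more.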

Additional observations from a re-analysis of the deposited data

How the results depend on the processing

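The members' median log2 fold change was below 0 in each of the 18 alternatives and in both subsets of members chosen after seeing the data, from -0.24 (without control 2) to -0.11 (without both libraries numbered 3), and no member was called higher in any of them. Of the 4 members called lower, 2 were left after dropping members that share over 10% of exon bases, since Mrps27 and Mrpl19 were among those dropped. The number called also depended on the setting. It was 0 without the robust option, 0 without both libraries numbered 3, 1 with limma-voom and 14 with the GC and length trend removed. With each library left out it was 1 to 6. Large subunit calls, 2, became 0, 0, 1 and 9 in the first 4 of these settings and 1 to 4 with a library left out; small subunit calls, also 2, became 0, 0, 0 and 5, and 0 to 3, and 1 with upper-quartile rescaling or a pseudocount of 5. Over all genes, 618 higher became 144 without the robust option, 176 with limma-voom, 14 without both libraries numbered 3, 963 with all genes of any value above 0, and 186 to 608 with a library left out. The 681 lower became 206, 261 and 24 in the first 3 of these, and 234 to 739.

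Whether replicate numbers pair the samples was not settled. Over all tested genes, deviations of libraries with the same number had correlations of -0.0006, 0.0225 and 0.0377. For libraries with unlike numbers they were -0.0391 to 0.0173. With 3 libraries a genotype, such values cannot exclude pairing. With the replicate block, 2 members were called (Mrpl4 and Mrps27), and 10 with the block and the trend removed together. The sign turned in at least 1 alternative for 17 members, 4 of those above 0 and 13 of those below, all of them uncalled. Among genes named by the rule it turned for Mrpl20, which ran from -0.077 to 0.142 with a library left out, for Mrpl28, at 0.0057 with the GC and length trend removed with or without the block, and for Ptcd3, at -0.069 in those same fits, -0.022 without both libraries numbered 3, and -0.013 to 0.045 with a library left out. The cause of these changes was not tested. The summed share of the members stayed lower, at -14.3% to -8.06% with a library left out. With 3 libraries a genotype a difference near the members' median of -0.18 was about as large as 2 standard errors of a member.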
